A study of Homo sapiens with 6 samples.

Results

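The transcripts described here are 9 genes of RAS to ERK signalling: the RAS genes HRAS and NRAS, the MAP kinase phosphatase genes DUSP4, DUSP5 and DUSP6, and the inhibitor genes SPRY2, SPRY4, SPRED1 and SPRED2. They were selected by gene symbol, and all 9 were found among the 33542 genes of the count table. All 9 also passed the filter on low counts that left 18685 genes for testing. RNA sequencing compared cells of T24, an established human line from a bladder carcinoma, grown in RPMI medium with serum, that had been transfected with siRNA directed at TRAIP (siTRAIP) or with the control siRNA siNC. TRAIP is an E3 ubiquitin ligase that acts at stalled replication forks, and the series asks what lies downstream of it in bladder cancer. The knockdown columns all carry the label siTR2, and the series holds no library with another TRAIP siRNA label. Effects of this siRNA on other transcripts therefore cannot be told apart from those of TRAIP loss. Each group had 3 libraries from 1 cell line, T24 itself carries mutant HRAS, and both groups share that background. Gene counts do not show the sequence of the HRAS transcripts counted, and transcript levels measure neither protein nor ERK activity.

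RAS proteins are small GTPases that, when bound to GTP, recruit RAF kinases to the membrane and start the RAF, MEK and ERK kinase cascade. ERK then switches on genes that turn the pathway down again. Among them, DUSP5 and DUSP6 encode phosphatases that remove the activating phosphates from ERK in the nucleus and the cytoplasm, and DUSP4 encodes a nuclear phosphatase that also acts on other MAP kinases. Sprouty proteins (SPRY2, SPRY4) and SPRED proteins (SPRED1, SPRED2) act upstream, where SPRED1 brings the GTPase-activating protein neurofibromin to RAS. Levels of DUSP6, SPRY2 and SPRY4 transcripts are widely read as a gauge of ERK output. In bladder cancer, RAS genes and receptor tyrosine kinases are recurrent points of activation of this pathway.

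The siNC libraries held between 54818483 and 58066330 gene counts each. The siTRAIP libraries were less even, with 39111793, 46102683 and 70439496 counts in replicates 1 to 3. TRAIP mRNA itself stood at 26.6, 28.3 and 28.4 CPM (counts scaled to a common library total with TMM factors) in the siNC libraries and at 12.5, 14.7 and 11.6 CPM in the siTRAIP libraries. Its fold was 0.465, so the knockdown was partial. The p-values weigh the group difference against the spread between these libraries, estimated with information from all genes. The labels do not say whether replicates were separate cultures, so that spread may be technical. Of the tested genes, 12.8% were called at an edgeR adjusted p under 0.05 in either direction, 7.47% as rises and 5.34% as falls, and the CPM ranges of the groups did not overlap for 29.1%. The library of siTRAIP replicate 3 stood apart, with a chi-square per degree of freedom of 17.4 and 18.0 against the other siTRAIP libraries, whereas other pairs within a group gave 3.35 to 7.93. It was also the deepest library, and the part of depth in these values was not tested. That library also held the highest summed level of 5 fibroblast markers, 0.557 RPKM against 0.106 to 0.157 RPKM in the other libraries, with COL1A1 at 294 counts and COL3A1 at 30 counts. Leukocyte and endothelial markers other than CD68 had at most 6 counts in any library, and CD68 (15.8 to 16.9 RPKM in siNC, 17.3 to 20.4 in siTRAIP) rose. The summed level of 10 epithelial and urothelial markers was 721 to 743 RPKM in siNC and 636 to 699 RPKM in siTRAIP, on a scale without TMM factors. The part of these marker shifts in the results was not tested. The epithelial keratin genes KRT7, KRT8 and KRT18 were abundant (149 to 329 RPKM). On the CPM scale KRT7 fell (log2 fold change -0.18, edgeR adjusted p = 0.00375), and KRT8 and KRT18 were not called. CDH1, the E-cadherin gene, and the uroplakin genes UPK1A and UPK3A were at or near 0 with at most 7 counts, and UPK2, another uroplakin gene, had 17 to 57 counts.

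Of the 9 genes, NRAS fell and no other passed the test: 1 of 9 was called, and the background share is 12.8%. The falling share of 5.34% is the background for the NRAS call in its own direction. The groups did not overlap for 2 of 9, NRAS and SPRY2, beside 29.1% of all tested genes. The median log2 fold change of the 9 was -0.09, and that of all tested genes was -0.002.

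**Figure D1:**
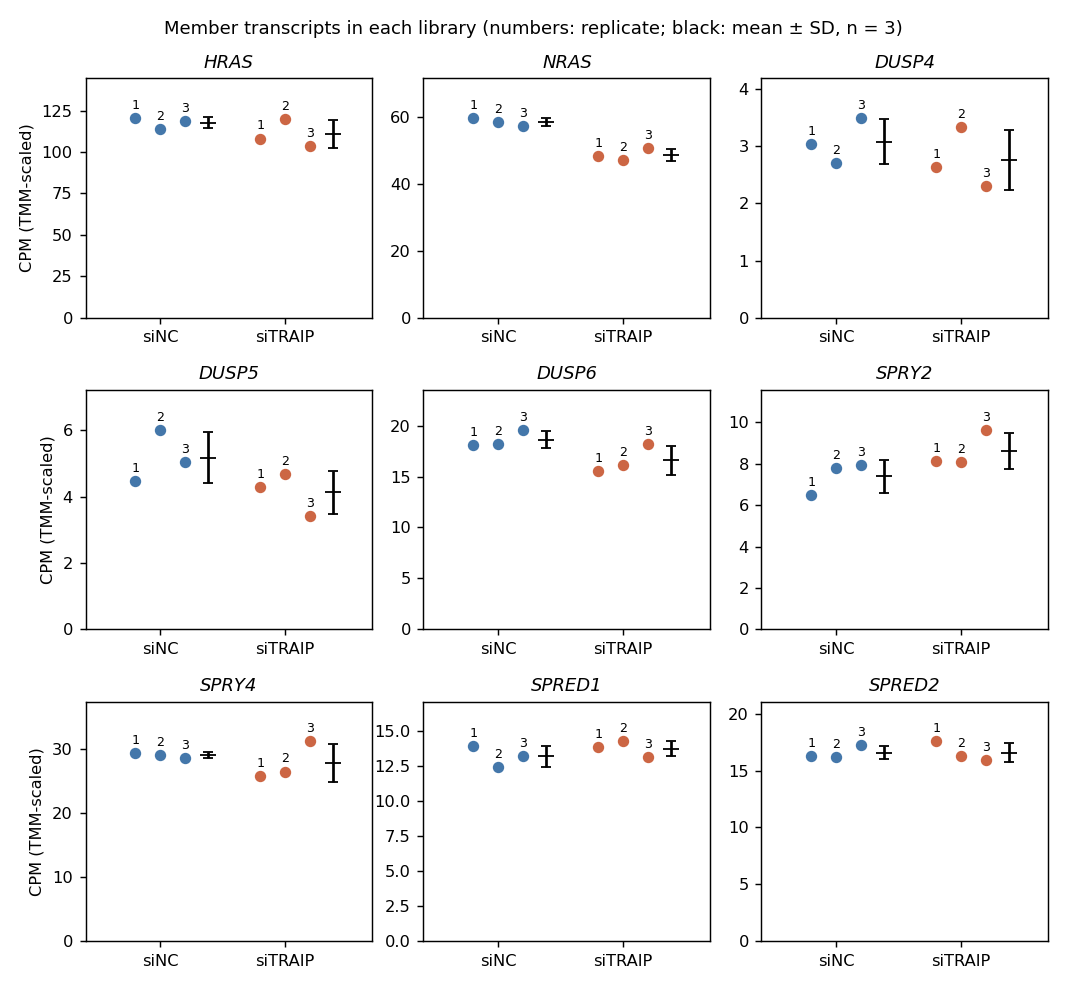
CPM (TMM-scaled, each axis from 0) of the 9 transcripts in each library, with siNC in blue, siTRAIP in orange, replicate numbers above the points and the mean ± SD of 3 libraries in black. The 3 siTRAIP libraries lie below the 3 siNC libraries for NRAS. Replicate 3 of siTRAIP lies above the other 2 siTRAIP libraries for NRAS, DUSP6, SPRY2 and SPRY4.

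Per length, HRAS was by far the most abundant of the 9 and DUSP4 the scarcest. On the deposited RPKM scale, which divides counts by gene length and library total, the siNC means were 64.8 for HRAS, 13.4 for NRAS, 5.001 for SPRY4, 4.11 for DUSP6, 3.28 for SPRED2, 2.48 for SPRY2, 2.02 for DUSP5, 1.63 for SPRED1 and 0.433 for DUSP4. The HRAS level was 4.84 times that of NRAS. In siNC each neighbouring pair in this order was separated by its library ranges, with the exception of SPRY2 (2.18 to 2.68) and DUSP5 (1.75 to 2.32). In siTRAIP the ranges of DUSP6, SPRED2 and SPRY2 ran into each other, SPRED1 (1.63) and DUSP5 (1.55) changed places with overlapping ranges, and the other neighbours stayed separate. HRAS, NRAS and SPRY4 were the top 3 and DUSP4 the lowest in both groups. RPKM carry no TMM factor, and on that scale (log2(RPKM + 0.1)) the median gene was shifted by -0.06 in siTRAIP, so changes of the 9 genes between groups were tested on the CPM scale.

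**Figure D2:**
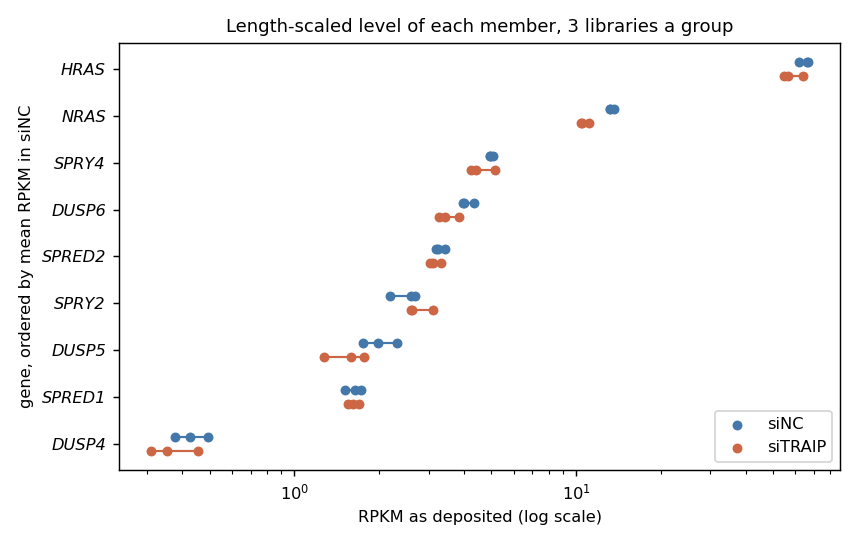
Deposited RPKM of each gene on a log axis, with 3 points and their range per group, siNC in blue and siTRAIP in orange. HRAS lies near 60 RPKM in both groups, NRAS between 10.4 and 13.7, and DUSP4 below 0.5.

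NRAS, which encodes one of the RAS GTPases, was the member that changed. It stood at 59.5, 58.3 and 57.3 CPM in siNC replicates 1 to 3 and at 48.2, 47.1 and 50.7 CPM in siTRAIP replicates 1 to 3. Every siTRAIP library lay below every siNC library, and the group means differed by several times the SD of either group. The log2 fold change was -0.26 (SE 0.05; 95% interval -0.36 to -0.16), a fold of 0.834, with an edgeR adjusted p of 4.26e-04. The fall stayed past the threshold in all 17 alternatives, with a log2 fold change between -0.32 and -0.24, and it was -0.29 without siTRAIP replicate 3. In bulk RNA, fewer cells of a kind and less RNA per cell cannot be told apart. NRAS lies on the minus strand of chromosome 1 (chr1:114704469-114716894, GRCh38) and shares no exonic base with another gene annotated in GENCODE v29.

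HRAS, the RAS gene that is mutant in T24, stood at 120.3, 113.9 and 119 CPM in siNC and 108.2, 120.1 and 103.7 CPM in siTRAIP. The groups overlapped, because siTRAIP replicate 2 lay just under the highest siNC library. HRAS, at a log2 fold change of -0.09 (SE 0.05), was not called (edgeR adjusted p = 0.277), and its 95% interval of -0.19 to 0.01 reaches down to a fold of 0.875. The estimate moved with single libraries: it was -0.15 without siTRAIP replicate 2 (adjusted p = 0.0538) and -0.04 without siTRAIP replicate 3 (adjusted p = 0.596). The 2 RAS genes were then compared within libraries. The ratio of HRAS to NRAS on the RPKM scale was 4.85, 4.69 and 4.98 in siNC and 5.38, 6.13 and 4.91 in siTRAIP. These ratios overlapped, and the difference between the 2 log2 changes (NRAS minus HRAS, -0.17) had a 2-sided exact permutation p of 0.20 (0.40 after Benjamini-Hochberg adjustment over 4 pairs of related genes), where 3 against 3 libraries cannot go below 0.10. With so few libraries this test could not pass at any size of difference, so it does not say whether the 2 genes differ. Reads of the 2 genes are separable by sequence: in an ungapped comparison of the 570 coding bases of each, 73.0% were identical and the longest identical run was 14 bases. HRAS (chr11:532242-537287, GRCh38, minus strand) shares no annotated exonic base with another gene.

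The NRAS transcript holds a let-7 seed match and a 7-base word from an earlier search of these data, and both are shown here as a description. The RAS genes are known targets of the let-7 microRNA family. The mature let-7a sequence (RefSeq, GRCh38.p14) is printed with its seed, bases 2 to 8, in capitals, above the single seed match in the NRAS 3' UTR, which capitals also mark. CAGTCTA and ACAGTCT are 7-base words that an earlier search of these same fold changes linked to genes that fell, so their presence in a gene that fell supports nothing. Their sites in NRAS, SPRED1 and DUSP5 follow, taken from the GENCODE v29 transcript with the longest complete coding sequence, with the word in capitals.
let-7a-5p: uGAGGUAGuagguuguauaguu
NRAS let-7 match, chr1:114707891-114707919, minus strand: tctcagaataaCTACCTCctcacttggct
NRAS word, chr1:114704873-114704901, minus strand: gtttctttgagCAGTCTAatgtgccacac
SPRED1 word, chr15:38354094-38354122, plus strand: agtttcttaatCAGTCTAcaagactaact
DUSP5 word, chr10:110510365-110510393, plus strand: ctacccactcaACAGTCTcagagctcagc

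The let-7 match starts at base 186 of the 3625-base NRAS 3' UTR, and no other member held CTACCTC in its 3' UTR. Among 8831 protein-coding genes with a mean of at least 5 CPM and a 3' UTR of at least 50 bases, 9.58% held it there. The median log2 fold change of those genes was -0.008, and that of the genes without it was close to 0. CAGTCTA was in the 3' UTR of 7.11% of these genes, with a median log2 fold change of -0.04 where it was present and 0.001 where it was not. Either CAGTCTA or ACAGTCT occurred in the coding sequence or 3' UTR of 4 of the 9 members (NRAS, SPRED1, DUSP4 and DUSP5), and of 28.8% of the 8831 genes. DUSP4 and DUSP5 lay below a mean of 5 CPM and are not among the 8831. SPRED1, which holds the same word in its 3' UTR as NRAS does, had a log2 fold change of 0.06. The sequence of the small interfering RNA is not given in the sources used here, and the part of any match in the NRAS fall was not tested.

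Promoter windows were to be printed for the 2 members with the smallest edgeR p, NRAS and DUSP5. DUSP5 had no window, so only the NRAS window is printed. It spans 250 bases before to 50 after the RefSeq start (chr1:114716722-114717021, GRCh38.p14, minus strand), and capitals mark the ETS word CCGGAA on either strand. Some ETS factors are among the transcription factors that ERK phosphorylates directly.
NRAS promoter: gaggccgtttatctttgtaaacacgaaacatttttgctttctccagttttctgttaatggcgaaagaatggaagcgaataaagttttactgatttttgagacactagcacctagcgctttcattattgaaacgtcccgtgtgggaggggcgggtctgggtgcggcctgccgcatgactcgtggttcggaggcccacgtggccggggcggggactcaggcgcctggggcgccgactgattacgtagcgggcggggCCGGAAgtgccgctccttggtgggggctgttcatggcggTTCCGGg
The window held 2 such words, both near the start site. RefSeq windows were found for 7 of the 9 genes, not for DUSP4 and DUSP5. HRAS and the first of 3 SPRY2 windows held 1 CCGGAA each, and the windows of DUSP6, SPRY4, SPRED1 and SPRED2 held none. Of all 35116 windows of this length 17.2% held it. The AP-1 word TGANTCA, searched on both strands, occurred 2 times in the second SPRED2 window, and in 7.71% of all windows. The CArG box of SRF was in none of the members' windows and in 1.29% of all windows.

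The estimates of the 3 MAP kinase phosphatase genes all lay below 0, and none passed the test. DUSP5, the nuclear ERK phosphatase gene, stood at 4.46, 6.01 and 5.06 CPM in siNC and 4.29, 4.68 and 3.41 CPM in siTRAIP. The groups overlapped, since siTRAIP replicate 2 lay above siNC replicate 1. The log2 fold change of -0.34 (SE 0.13) was the largest in size among the 9, with a 95% interval of -0.62 to -0.07 and an edgeR adjusted p of 0.0968. Its estimate rested on 163 to 333 counts per library and on single libraries: it was -0.20 without siTRAIP replicate 3, -0.22 without siNC replicate 2 and -0.45 without siTRAIP replicate 2. It passed without a count filter (adjusted p = 0.0435) and on total counts alone (adjusted p = 0.0383). DUSP5 also has 2 processed pseudogenes in GENCODE v29, so its counts could be split.

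DUSP6, the cytoplasmic ERK phosphatase gene, stood at 18.1, 18.2 and 19.6 CPM in siNC and 15.5, 16.1 and 18.2 CPM in siTRAIP. Replicates 1 and 2 of siTRAIP lay below every siNC library, while siTRAIP replicate 3 lay within the siNC range. The estimate was -0.16 on the log2 scale (SE 0.07; 95% interval -0.31 to -0.02) and did not pass (edgeR adjusted p = 0.146). Without siTRAIP replicate 3, the library that stood apart and held the most fibroblast marker signal, it was -0.24 and passed (adjusted p = 0.0198); on total counts alone it was -0.22 and passed (adjusted p = 0.0365). The part of the marker signal in these values was not tested. The antisense transcript AC024909.2 shares 40.5% of the exonic bases of DUSP6 on the opposite strand, and although the library kit is a stranded one, the strand setting used in counting is not stated, so the DUSP6 counts are uncertain. DUSP4 was scarce, at 3.03, 2.71 and 3.48 CPM in siNC and 2.63, 3.34 and 2.31 CPM in siTRAIP. Its groups overlapped widely, and the estimate of -0.17 on the log2 scale (SE 0.15, edgeR adjusted p = 0.538) had a 95% interval of -0.48 to 0.14. DUSP4 had 100 to 208 counts per library, and the estimate was -0.33 without siTRAIP replicate 2, -0.07 without siNC replicate 3 and -0.04 without siTRAIP replicate 3.

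**Figure D3:**
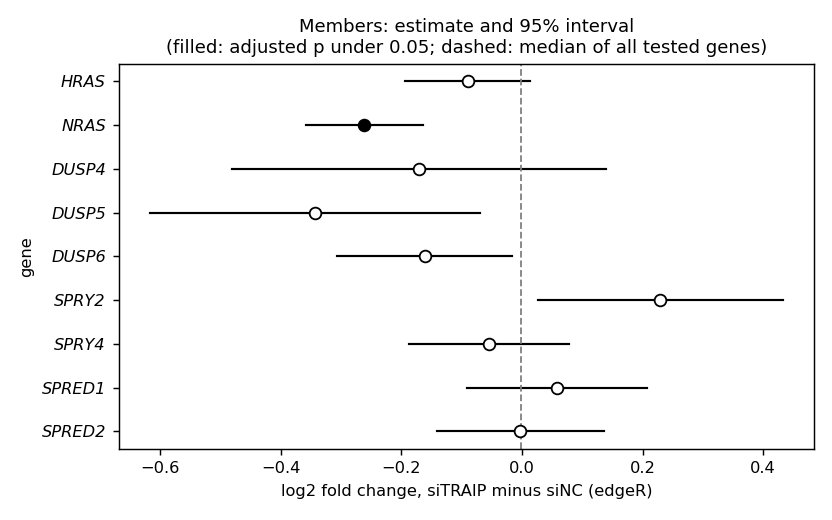
Log2 fold change (siTRAIP minus siNC, edgeR) of each gene with its 95% interval, filled where the adjusted p was under 0.05, and a dashed line at the median of all tested genes. NRAS at -0.26 is the filled point, and the intervals of DUSP5, DUSP6 and SPRY2 also exclude 0 before adjustment over all genes.

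Among the Sprouty genes the estimates had opposite signs, and neither gene passed. SPRY2 stood at 6.47, 7.78 and 7.92 CPM in siNC and 8.14, 8.07 and 9.63 CPM in siTRAIP. The groups did not overlap, but the gap between siNC replicate 3 and siTRAIP replicate 2 was small beside the spread of either group. Its log2 fold change of 0.23 (SE 0.10; 95% interval 0.03 to 0.43) had an edgeR adjusted p of 0.14. It was 0.13 without siTRAIP replicate 3 and 0.14 without siNC replicate 1, and it passed in none of the 17 alternatives. SPRY4 stood at 29.5, 29.1 and 28.6 CPM in siNC and 25.9, 26.5 and 31.2 CPM in siTRAIP. The siNC libraries were close together, and the siTRAIP libraries lay on both sides of them, replicate 3 above and the other 2 below. SPRY4 had an estimate of -0.05 on the log2 scale (SE 0.06, edgeR adjusted p = 0.672), which was -0.15 without siTRAIP replicate 3 (adjusted p = 0.0746). The SPRY2 and SPRY4 log2 changes differed by 0.29, with a 2-sided exact permutation p of 0.10 (0.40 adjusted over the 4 pairs). As 3 against 3 libraries cannot go below 0.10, this test does not say whether the 2 genes differ.

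The SPRED genes showed the smallest differences together with SPRY4. SPRED1 stood at 13.9, 12.4 and 13.2 CPM in siNC and 13.8, 14.2 and 13.1 CPM in siTRAIP, and SPRED2 at 16.3, 16.2 and 17.2 CPM and 17.6, 16.3 and 15.9 CPM. Both pairs of groups overlapped across most of their range. The log2 fold changes were 0.06 (95% interval -0.09 to 0.21, edgeR adjusted p = 0.69) for SPRED1 and -0.003 (95% interval -0.14 to 0.14, edgeR adjusted p = 0.988) for SPRED2. The SPRED2 interval leaves room for a fold between 0.907 and 1.10. The other pairs of related genes, DUSP5 with DUSP6 and SPRED1 with SPRED2, had exact permutation p-values of 0.60 and 0.50 for the difference of their log2 changes. This test cannot go below 0.10 with so few libraries, so it does not say whether the genes of a pair differ.

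**Figure D4:**
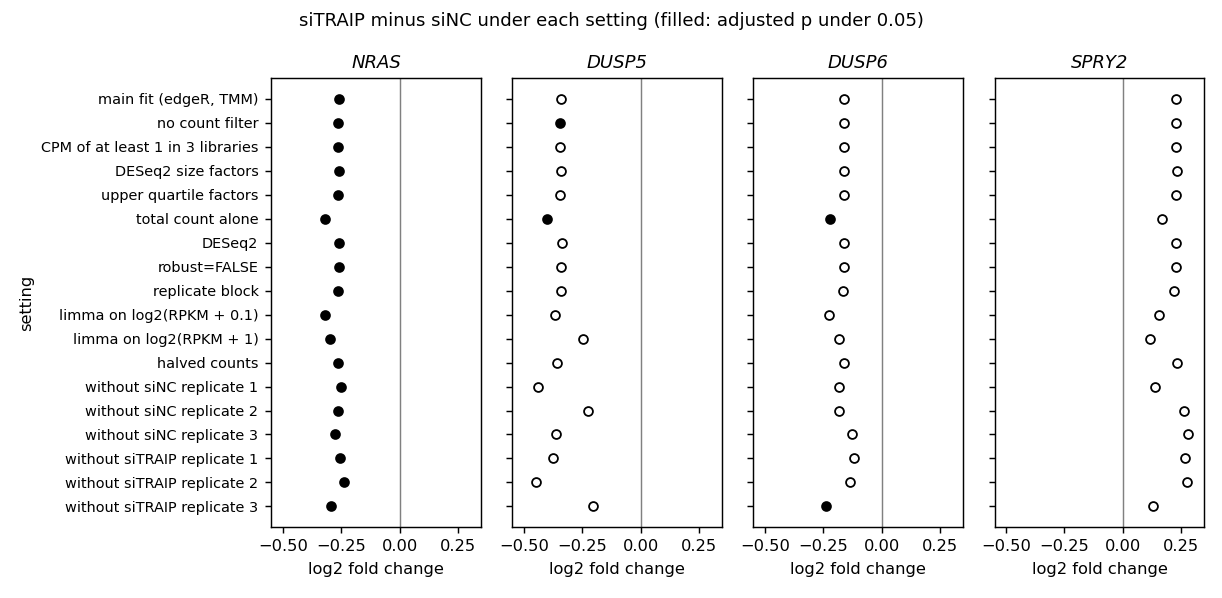
Log2 fold change of NRAS, DUSP5, DUSP6 and SPRY2 (x axis) under the reported fit and 17 alternatives (y axis), filled where the adjusted p was under 0.05. NRAS is filled throughout between -0.32 and -0.24, DUSP5 and DUSP6 are filled under 2 settings each, and SPRY2 under none.

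Outside the 9, 75 genes of the pathway were grouped into 8 lists, of which 69 genes were tested: 5 rose and 11 fell, beside background shares of 7.47% and 5.34%. The clearest group was ERK output genes, which are transcribed in response to ERK activity in many cell types: of 15 tested, 6 fell and 1 rose, with a median log2 fold change of -0.20. This list was chosen with earlier results known, so its direction is no independent evidence. CCND1, the cyclin D1 gene, stood at 676, 686 and 688 CPM in siNC and 474, 489 and 521 CPM in siTRAIP. It fell by 0.47 on the log2 scale (SE 0.04, edgeR adjusted p = 5.14e-08). ETV5, an ETS factor gene, stood at 50.3, 48.7 and 48.3 CPM in siNC and 39.8, 40.7 and 39.7 CPM in siTRAIP. It fell by 0.29 on the log2 scale (SE 0.05, edgeR adjusted p = 1.14e-04). FOSL1, which encodes the AP-1 subunit FRA-1, went from 292 ± 9.10 to 250.4 ± 3.49 CPM (SD, n = 3 each; log2 fold change -0.22, edgeR adjusted p = 5.73e-04). In all 3, every siTRAIP library lay below every siNC library. HMGA1 (-0.25), PHLDA1 (-0.22) and the ephrin receptor gene EPHA2 (-0.20) fell too. IER3, an early response gene, rose (log2 fold change 0.27, edgeR adjusted p = 0.0241). These 4 were named after their values were seen. The rest of the 15 were not called, and they too were named later. ETV1 (-0.16), ETV4 (-0.16), IL11 (-0.22), EPHA4 (-0.23) and PLAUR (-0.01) had estimates below 0. SPHK1 (0.05), FOS (0.88, 8 to 22 counts) and EGR1 (0.15, 22 to 42 counts) had estimates above 0. The 6 falls were also called under each of the 17 alternatives, whereas the IER3 call was lost in 7 of them, among them without siTRAIP replicate 3 (0.25, adjusted p = 0.0556). An opposite-strand gene shares 10.3% of the exonic bases of CCND1, 2 such genes share 16.5% of those of PHLDA1, and IER3-AS1 shares 26.5% of those of IER3; HMGA1 has 8 gene copies named as its pseudogenes and FOSL1 has 1. ETV5 shares 2.83% of its exonic bases with DGKG on the same strand (DGKG log2 fold change -0.23).

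**Figure D5:**
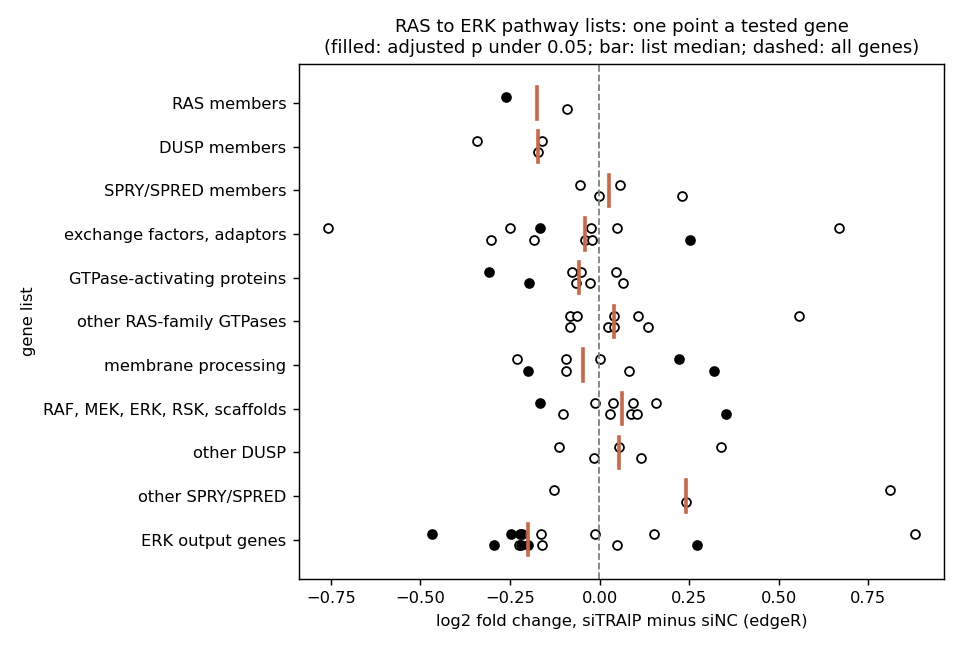
Log2 fold change (siTRAIP minus siNC) of every tested gene of the pathway lists, one point per gene, filled where the edgeR adjusted p was under 0.05, with the list median as an orange bar and the median of all tested genes dashed. The ERK output genes have 6 filled points left of 0 and 1 right of it, and the other lists hold 0 to 3 filled points each.

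Of 11 tested genes for exchange factors, which load RAS, and for adaptors and related proteins, 1 rose and 1 fell. The shares of all tested genes were 7.47% and 5.34%. PTPN11, the gene of the phosphatase SHP2 that acts upstream of RAS, went from 342 ± 13.7 to 408 ± 12.0 CPM (SD, n = 3 each; log2 fold change 0.25, edgeR adjusted p = 2.36e-04). The abundant gene RPL6 (1511 CPM, log2 fold change 0.0007) shares 1.58% of the PTPN11 exonic bases on the opposite strand. GRB2, the adaptor that brings SOS to receptors, went from 127 ± 4.81 to 113 ± 1.77 CPM (log2 fold change -0.17, edgeR adjusted p = 0.0113). It no longer passed when siNC replicate 3 (adjusted p = 0.0688) or siTRAIP replicate 1 (adjusted p = 0.0524) was left out. Of 8 tested genes for GTPase-activating proteins, which switch RAS off, 2 fell and none rose, beside 5.34% and 7.47% of all tested genes, and only the RASA2 call held in all 17 alternatives. RASA2 went from 23.4 ± 1.02 to 18.9 ± 0.852 CPM (log2 fold change -0.31, edgeR adjusted p = 0.00138). DAB2IP went from 23.2 ± 0.239 to 20.3 ± 1.48 CPM (log2 fold change -0.20, edgeR adjusted p = 0.0427), a call lost in 9 of 17 alternatives, with adjusted p = 0.165 without siTRAIP replicate 3 and 0.0557 under the replicate block.

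Genes for the processing and trafficking of RAS at membranes included 2 rises and 1 fall among 8 tested, beside 7.47% and 5.34% of all tested genes. GOLGA7, a subunit of the RAS palmitoyltransferase, had a log2 fold change of 0.32 (edgeR adjusted p = 0.00439). ICMT, the methyltransferase of the prenylated RAS C-terminus, had one of 0.22 (edgeR adjusted p = 0.014). LYPLA1, a depalmitoylating thioesterase gene, had one of -0.20 (edgeR adjusted p = 0.00593) and has 3 processed pseudogenes. The ICMT call was lost in 6 of 17 alternatives, among them without siNC replicate 1 or 2 or siTRAIP replicate 2 (adjusted p from 0.0507 to 0.125), and that of GOLGA7 in 2, both on the RPKM scale.

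Downstream of RAS, 1 of 10 tested RAF, MEK, ERK, ribosomal S6 kinase and scaffold genes rose and 1 fell, shares close to the 7.47% and 5.34% of all tested genes. RPS6KA3, the gene of the ERK-activated kinase RSK2, went from 40.9 ± 1.76 to 52.2 ± 1.89 CPM (SD, n = 3 each; log2 fold change 0.35, edgeR adjusted p = 2.45e-05). ARAF, a RAF kinase gene, went from 34.4 ± 0.326 to 30.7 ± 0.765 CPM (log2 fold change -0.17, edgeR adjusted p = 0.0314), and leaving out any 1 of 5 libraries, all but siTRAIP replicate 2, ended that call (adjusted p from 0.0526 to 0.111). ARAF has 3 processed pseudogenes.

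None of the 9 other RAS-family GTPase genes passed, and none of 5 other MAP kinase phosphatase genes or 3 other Sprouty and SPRED genes did. The smallest p of each was in RIT1, a RAS-related GTPase gene (log2 fold change 0.55, edgeR adjusted p = 0.0556), DUSP16 (0.12, adjusted p = 0.256) and SPRY1. RIT1 stood at 14.8, 17.4 and 16.3 CPM in siNC and at 22, 19.9 and 28.7 CPM in siTRAIP. Its groups did not overlap and siTRAIP replicate 3 was the highest library; without that library the log2 fold change was 0.37 and passed (adjusted p = 4.69e-04), and it passed in 7 of the 17 alternatives, the replicate block among them (0.54, adjusted p = 0.00656). SPRY1 was scarce, with means of 0.189 CPM (siNC) and 0.332 CPM (siTRAIP).

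The profile of NRAS over the 6 libraries was most like those of SFT2D2, COMMD3 and PLK2, a polo-like kinase gene, with Pearson correlations of log2(CPM + 1) of 0.998, 0.998 and 0.996. These came from 10698 genes with a mean of at least 5 CPM, of which 285 reached a correlation above 0.95 over these libraries. All 3 fell as well, by 0.33, 0.49 and 0.14 on the log2 scale. A gene picked for so close a match to NRAS must share its direction, so these falls are no separate result. For DUSP5 the nearest profiles were those of POLD4, RAD21-AS1 and GPR108, with correlations of 0.993, 0.984 and 0.98 and with 26 genes above 0.95. None of those 3 passed the test (edgeR adjusted p = 0.441, 0.46 and 0.594).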

How the data were processed

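The 6 libraries, 3 siNC and 3 siTRAIP, were grouped by sample title. Raw gene counts were deposited, and the authors' RPKM values equal these counts divided by gene length and library total. Trimmomatic 0.36, featureCounts and Subread 1.5.1, with build GRCh38, come from the submitters' processing notes; the sources used here name no aligner, annotation release or strand setting. Counts of 1 to 10 were even in 70.2% of cases; whether both reads of a pair were counted was not tested.

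Differential expression was computed with edgeR 4.0.16 in R 4.3.3: filterByExpr, TMM factors, a robust quasi-likelihood fit and F-test, 2-sided, Benjamini-Hochberg adjustment over 18685 genes, threshold 0.05. The script was tested on simulated data. SE is the log2 fold change divided by the square root of F, and 95% intervals use the fit's degrees of freedom. Levels between genes were compared in RPKM. Members and lists were chosen with earlier results of these data known. Named genes are the members, TRAIP, up to 3 called genes per list by adjusted p (or the 1 with the smallest p), the nearest profiles, and genes stated as named later. Lists were described by counts and medians. Alternatives included DESeq2 1.42.0 and limma 3.58.1. Halved counts and the counts per list under alternatives were added after seeing the data. The permutation comparisons of gene pairs were not in the plan either. The lists do not hold every gene of the pathway.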

Additional observations from a re-analysis of the deposited data

How the results depend on the processing

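Over 153 values of the 9 members under alternatives, 145 kept their direction and side of the threshold, 4 became called and 4 changed sign. DUSP5 was called without a count filter (-0.35) and on total counts alone (-0.40), and DUSP6 on total counts alone (-0.22) and without siTRAIP replicate 3 (-0.24). The number of members called was therefore 2 without a count filter, 3 on total counts alone and 1 to 2 with 1 library left out. Sign changes were in values near 0: SPRED1 on total counts alone (-0.0024), and SPRED2 without siNC replicate 3 (0.02), siTRAIP replicate 2 (0.0084) or siTRAIP replicate 3 (0.027). With 1 library left out, the log2 fold change ran from -0.24 to -0.12 for DUSP6 and from -0.043 to 0.027 for SPRED2.

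Over all genes, 2393 changed, 1396 up and 997 down. On total counts alone 838 genes rose and 2050 fell, where the median over all genes shifted to -0.06. With limma on log2(RPKM + 0.1), 1521 changed and 454 rose, and on log2(RPKM + 1) 1517 and 450; with 1 library left out, counts ran from 1480 to 2622 changed, 878 to 1471 rises and 602 to 1151 falls, the lowest without siNC replicate 1, with fewer samples in each fit. Of the context genes, 5 rose; 3 did on total counts alone, 2 on either RPKM scale, and 3 to 5 with 1 library left out (3 without siNC replicate 1 or siNC replicate 2). RPKM with TMM-scaled totals put NRAS in siNC at 13.1 and SPRY4 in siNC at 4.90, both more than 1 SD below the deposited scale, by construction; 70 other levels moved by less. The cause of other shifts was not tested.

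Nothing in the titles ties libraries of equal replicate number to each other, and the deviations from group means had correlations of 0.03, -0.09 and -0.01 between libraries of equal number. The fit with a replicate block called 2145 genes, 1 of the 9 members among them (NRAS, -0.26). For named genes outside the members, 300 values kept direction and call, 31 lost the call and 7 gained it.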
